A study of Mus musculus with 12 samples.

Results

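The 8 genes described here encode plasma and tissue proteins of the acute-phase response, several of which keep iron or haem from microbes: Saa1, Saa2, Saa3, Lcn2, Hp, Hpx, Orm1 and Cp. They were taken by gene name from mouse skin arrays, where 9 of 39429 distinct probes carry these names, and all 8 were among the 20391 genes measured. Saa1 and Saa3 were chosen by their log2 fold changes between antimiR-29 and PBS in intact skin, 2.56 and 2.76 in the values given here. Their values in intact skin, and differences from it, are therefore a description without a test, and so are those of Saa2, a close paralog of Saa1.

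The arrays came from male C57BL/6 mice of about 8 weeks, with 3 biological replicates in each of 4 groups. Incised skin carried a sutured wound of 1 cm and was injected intradermally 72 h after wounding, either with 100 nmol of a miR-29b mimic (a synthetic form of the microRNA) or with PBS. Intact skin was injected with 100 nmol of antimiR-29, an oligonucleotide that inhibits miR-29, or with PBS. Skin was taken 24 h after injection, so every group, the controls included, had received an injection. Samples were pieces of whole skin, in which fewer cells of a type and less RNA per cell cannot be told apart.

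The acute-phase response is the rise in certain plasma proteins that follows injury or infection. The liver is its main source, driven by interleukin 6 and interleukin 1 through STAT3, C/EBP and NF-kB factors, but keratinocytes, fat cells, macrophages and neutrophils also make some of these proteins. Iron withholding is its antimicrobial arm, in which proteins bind free haemoglobin, haem or the siderophores with which bacteria collect iron.

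The treatment oligonucleotides are built on the miR-29 family. Its mature mouse sequences, from RefSeq (GRCm38.p6), are given to show the shared seed, bases 2 to 8, which is in capitals.
miR-29a-3p: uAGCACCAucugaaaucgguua
miR-29b-3p: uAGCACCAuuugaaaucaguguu
miR-29c-3p: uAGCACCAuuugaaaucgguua
The seed was the same in all 3.

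The probes for Saa1 and Saa3 are shown because the values that follow rest on them. In the first, TGA in capitals is the only stop codon of its reading frame in the probe. Each is 60 bases long and is printed as the scanner files give it, 5′ to 3′.
Saa1 probe, mm9 chr7:53996070-53996129, minus strand: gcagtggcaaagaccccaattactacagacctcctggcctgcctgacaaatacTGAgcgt
Saa3 probe, mm9 chr7:53970389-53970448, minus strand: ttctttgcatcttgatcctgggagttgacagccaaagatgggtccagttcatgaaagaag
Saa1 and Saa2 are near-identical genes, and signal at the Saa1 probe may include Saa2 RNA. The same holds for Orm1 and its paralogs. The Saa2 probe lies at mm9 chromosome 7, 54009622 to 54009681, the Lcn2 probe at chromosome 2, 32240199 to 32240258, and the Hp probe at chromosome 8, 112099045 to 112099104. The Hpx probe lies at chromosome 7, 112740304 to 112740363. The Orm1 probe spans 608 bases at chromosome 4, 63006483 to 63007090, although it is 60 bases long. Cp has a brighter probe at chromosome 3, 19889071 to 19889130, which stands for the gene here, and a dimmer probe at 19907511 to 19907570. An exon annotation of the mm9 build was not used here.

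RefSeq promoter windows were matched for 6 of the 8 genes (build GRCm38.p6, a later build than the probe positions). The 250 bases before the start are shown for the 3 serum amyloid A genes and Lcn2, each of which was lowest on the same array, replicate 3 of PBS in intact skin. Capitals mark matches, on either strand, to letters bound by C/EBP factors (TTNNGNAA).
Saa1 promoter, chr7:46742981-46743230, minus strand: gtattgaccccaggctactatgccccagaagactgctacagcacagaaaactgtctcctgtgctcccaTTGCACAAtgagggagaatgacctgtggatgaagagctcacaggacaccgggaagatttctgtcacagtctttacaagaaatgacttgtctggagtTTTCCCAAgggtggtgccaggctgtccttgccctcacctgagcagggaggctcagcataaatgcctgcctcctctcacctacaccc
Saa2 promoter, chr7:46751583-46751832, plus strand: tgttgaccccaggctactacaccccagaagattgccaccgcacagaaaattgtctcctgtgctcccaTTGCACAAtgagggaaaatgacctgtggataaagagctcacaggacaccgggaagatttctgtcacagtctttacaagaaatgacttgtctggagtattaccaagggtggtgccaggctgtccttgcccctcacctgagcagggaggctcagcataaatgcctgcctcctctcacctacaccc
Saa3 promoter, chr7:46715677-46715926, minus strand: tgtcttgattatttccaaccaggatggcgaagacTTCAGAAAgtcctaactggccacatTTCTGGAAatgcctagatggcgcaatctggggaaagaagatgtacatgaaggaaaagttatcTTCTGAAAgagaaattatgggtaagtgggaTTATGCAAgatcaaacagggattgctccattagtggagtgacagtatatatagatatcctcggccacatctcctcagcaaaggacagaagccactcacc
Lcn2 promoter, chr2:32387740-32387989, minus strand: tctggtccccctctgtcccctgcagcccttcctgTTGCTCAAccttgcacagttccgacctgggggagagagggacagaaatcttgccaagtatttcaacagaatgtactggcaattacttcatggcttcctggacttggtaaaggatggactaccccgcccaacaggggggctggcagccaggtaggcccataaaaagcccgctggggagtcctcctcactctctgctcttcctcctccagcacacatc
The Saa1 and Saa2 windows were identical at 94.8% of 251 aligned positions, while Saa1 and Saa3 shared 48.9% of 284. The C/EBP letters occurred 2 times in Saa1, 1 time in Saa2, 4 times in Saa3 and 1 time in Lcn2, and 36.8% of 32851 promoter windows of that length hold them. The NF-kB consensus (3.90% of windows), letters for STAT factors (TTCNNNGAA, 7.02%) and TATAAA (12.4%) were searched on both strands and were found in none of these 4 windows. Matches to such short letters describe the sequence only.

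Values are log2 ratios of skin (Cy5) over a reference RNA (Cy3) that was shared by all arrays, so a level is relative to that reference and is comparable between arrays for a probe but not between probes. Between 65.6 and 73.8% of probes were above background in Cy5, with a signal over background of 3.67 to 5.00, and no spot was saturated. Intact PBS array 3 stood apart in its median correlation with the other arrays of its group, over kept probes with a value on every array. It was 0.918, against 0.937 to 0.974 for the other 11 arrays. The arrays lay on 3 slides, of which slide 1 held mimic array 1 with the incised PBS arrays, slide 2 held mimic arrays 2 and 3 with intact PBS arrays 1 and 2, and slide 3 held the antimiR arrays with intact PBS array 3. Incised and intact PBS arrays therefore shared no slide. The 8 skin identity markers were above background on all 12 arrays. Of the 9 member probes, 8 were above background in Cy5 on all 12 arrays. The Hpx probe was above it on 9, on 3 of 3 mimic, 1 of 3 incised PBS, 3 of 3 antimiR and 2 of 3 intact PBS arrays.

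A gene was called where limma's adjusted p over all genes was under 0.05. With mimic, none of the 8 genes was called against PBS in incised skin, where 0.593% of all genes were called (121 of 20391). Lcn2 and Hpx were higher on every mimic array than on any incised PBS array, and groups of arrays did not overlap upward for 12.4% of all genes. Both also had an unadjusted limma p under 0.05. So had 2549 of 20391 genes with mimic, 4914 with antimiR and 6412 with incision. With antimiR, none of the 5 tested genes (Lcn2, Hp, Hpx, Orm1 and Cp) was called in intact skin, where 9.78% of genes were called, and Hpx alone had an unadjusted p under 0.05. Hpx, alone of the 5 tested genes, was higher on every antimiR array than on any intact PBS array, as were 14% of all genes. The 3 untested Saa genes did not overlap upward either, but Saa1 and Saa3 were chosen by this difference, so that is no result. Between incised and intact skin under PBS, 1 of the 5 tested genes was called: Orm1 fell, among the 5.57% of genes called lower (15.5% called either way). Saa1 and Saa3 were higher on every incised PBS array and Orm1 lower, against 19.7% of all genes higher and 15.5% lower without overlap.

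**Figure D1:**
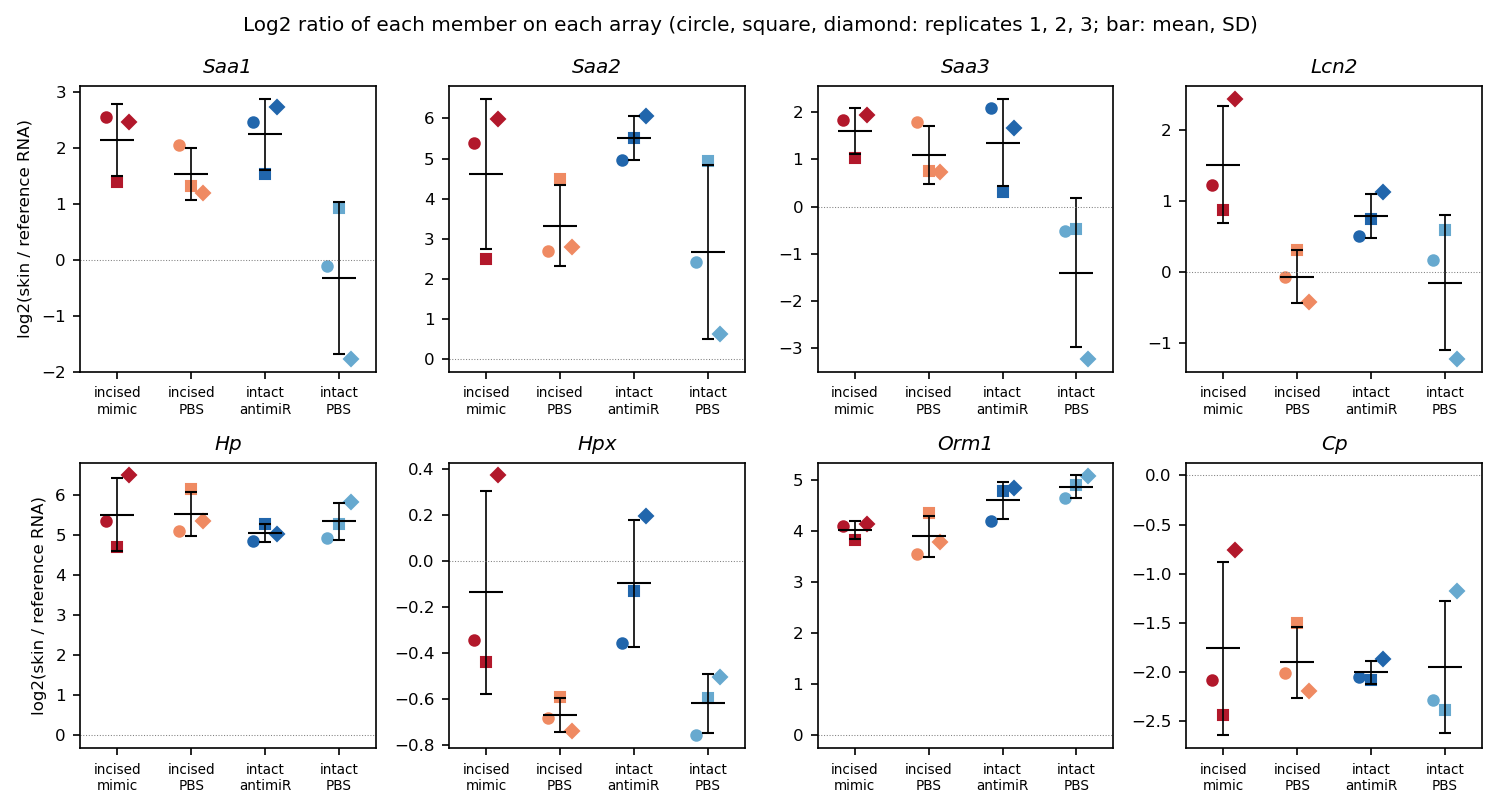
Log2 ratio of skin over reference RNA for each of the 8 genes (panels) on each of the 12 arrays, by group (mimic and PBS in incised skin, antimiR and PBS in intact skin). Symbols are replicates 1 to 3, and the bar is the mean with the SD (n = 3). Saa1 and Saa3 were lowest on intact PBS array 3, at -1.77 and -3.23, and Hp and Cp were highest on mimic array 3, at 6.48 and -0.76.

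**Figure D2:**
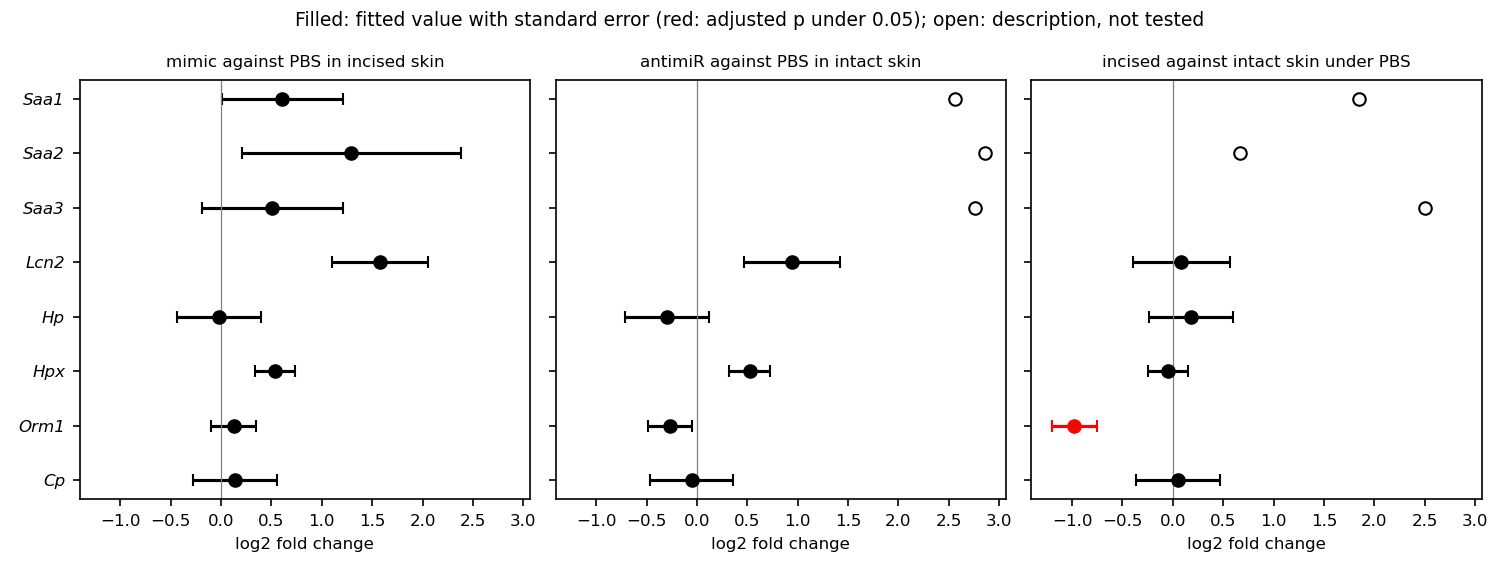
Log2 fold change of each gene in 3 comparisons. Filled points are fitted values with their standard error, open points are described without a test, and the red point, Orm1 at -0.98 between incised and intact PBS skin, is the only tested value with an adjusted p under 0.05.

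Saa3 encodes the serum amyloid A protein that mouse tissues make locally. Its log2 ratios were 1.83, 1.04 and 1.94 with mimic and 1.80, 0.75 and 0.73 with PBS in incised skin. In intact skin they were 2.09, 0.32 and 1.66 with antimiR and -0.52, -0.47 and -3.23 with PBS. Only the intact PBS arrays were below 0, and the spread among them, from -3.23 to -0.47, was the widest of the 4 groups. The mimic and incised PBS arrays overlapped. The mimic difference was 0.51 ± 0.70 (log2, standard error; limma adjusted p = 0.84). The antimiR difference, which led to the choice of this gene, was 2.76, and that between incised and intact PBS skin was 2.50. Both are measured from the same 3 intact PBS arrays. Without intact PBS array 3 they were 1.85 and 1.59.

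Saa1 in mice encodes a circulating serum amyloid A protein of the liver. Its log2 ratios were 2.55, 1.39 and 2.45 with mimic and 2.05, 1.32 and 1.19 with PBS in incised skin. They were 2.46, 1.52 and 2.73 with antimiR and -0.12, 0.91 and -1.77 with PBS in intact skin. Every antimiR array was above every intact PBS array, and the mimic and incised PBS groups overlapped. The difference was 0.61 ± 0.60 with mimic (limma adjusted p = 0.76), 2.56 with antimiR and 1.85 between incised and intact PBS skin. Without intact PBS array 3 the antimiR difference was 1.84 and that of incision 1.13. Across the 12 arrays Saa1 and Saa3 had a Pearson r of 0.97, a description over arrays that share a reference RNA and include the groups by which both were picked.

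Saa2, the other circulating form, was more uneven within groups. Its log2 ratios were 5.39, 2.49 and 5.98 with mimic and 2.69, 4.49 and 2.80 with PBS in incised skin. In intact skin they were 4.97, 5.52 and 6.07 with antimiR and 2.41, 4.95 and 0.62 with PBS. The antimiR arrays lay close together, and their lowest, 4.97, was next to the highest intact PBS array, 4.95. The mimic difference was 1.29 ± 1.09 (limma adjusted p = 0.70), and with 1 array left out it ran from 0.62 to 2.36. The antimiR difference was 2.86, and it was 1.84 without intact PBS array 3 and 4.01 without intact PBS array 2. The difference between incised and intact PBS skin was 0.67, and it was -0.35 without intact PBS array 3, 0.09 without incised PBS array 2 and 1.81 without intact PBS array 2.

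The slides bear on all 3 Saa genes. Within slide 3, which set the antimiR arrays against intact PBS array 3 alone, the antimiR differences were 4.01 for Saa1, 4.90 for Saa2 and 4.59 for Saa3. With slide as a fixed block the differences between incised and intact PBS skin were 0.50 for Saa1, -1.51 for Saa2 and 1.24 for Saa3. Incised and intact PBS arrays shared no slide, so these values are linked through the mimic arrays only. On slide 1 the link is mimic array 1 alone, and on slide 2 mimic arrays 2 and 3 stand beside intact PBS arrays 1 and 2. Intact PBS array 3 does not enter them. Within slide 1, with mimic array 1 against 3 incised PBS arrays, the mimic differences were 1.03, 2.07 and 0.74 in the same order of genes.

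Lcn2 encodes lipocalin 2, which binds bacterial siderophores and is made by neutrophils and injured epithelia. Its log2 ratios were 1.22, 0.87 and 2.44 with mimic and -0.08, 0.31 and -0.43 with PBS in incised skin. They were 0.50, 0.74 and 1.12 with antimiR and 0.17, 0.60 and -1.23 with PBS in intact skin. All mimic arrays lay above all incised PBS arrays, while the lowest antimiR array lay below the highest intact PBS array. The mimic difference was 1.57 ± 0.48, the 8th highest value of the 20391 genes, and did not pass the threshold (limma adjusted p = 0.18). It did with array weights, at 1.52 (adjusted p = 0.029), and over all alternatives the adjusted p ran from 0.029 to 0.679. Within slide 1 it was 1.29. The antimiR difference was 0.94 ± 0.48 (adjusted p = 0.26), and leaving out intact PBS array 3 gave 0.40, while with slide as a fixed block it was 2.02 (adjusted p = 0.044). Between incised and intact PBS skin Lcn2 was at 0.09 ± 0.48 (adjusted p = 0.92), and at -0.45 without intact PBS array 3. The mimic effect minus the antimiR effect was 0.63 ± 0.68 (adjusted p = 0.76), in a comparison where 1.1% of genes were called.

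Haptoglobin and hemopexin capture the haemoglobin and haem that damaged red cells release. Hp, a gene of the liver that fat tissue also expresses strongly, had log2 ratios of 5.34, 4.70 and 6.48 with mimic and 5.08, 6.14 and 5.34 with PBS in incised skin. In intact skin they were 4.84, 5.27 and 5.01 with antimiR and 4.91, 5.28 and 5.83 with PBS. The groups overlapped in every comparison. The differences were -0.02 ± 0.42 with mimic (limma adjusted p = 0.99), -0.30 ± 0.42 with antimiR (0.73) and 0.18 ± 0.42 between incised and intact PBS skin (0.80). The last turned to -0.81 when log ratios were scaled between arrays.

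Hpx was dim: with 1 of 3 incised PBS and 2 of 3 intact PBS arrays above background, its differences from these groups rest in part on spots at the limit of detection, and their size differed with the processed signals. Its log2 ratios were -0.34, -0.44 and 0.37 with mimic and -0.68, -0.59 and -0.74 with PBS in incised skin. They were -0.36, -0.13 and 0.19 with antimiR and -0.76, -0.60 and -0.51 with PBS in intact skin. In both pairs the groups did not overlap, with the PBS arrays lower. The differences were 0.53 ± 0.20 with mimic (limma adjusted p = 0.29) and 0.52 ± 0.20 with antimiR (adjusted p = 0.13), and without mimic array 3, which shares the estimate of spread, the antimiR value had an adjusted p of 0.038. The mimic effect minus the antimiR effect was 0.01 ± 0.28 (adjusted p = 0.99). With the signals as processed by the extraction program the mimic and antimiR differences were 1.17 and 1.34 (adjusted p = 0.37 and 0.11). Without mimic array 3 the mimic value was 0.28. Between incised and intact PBS skin Hpx was at -0.05 ± 0.20 (adjusted p = 0.89).

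Orm1 encodes orosomucoid, a plasma glycoprotein that carries drugs and other small molecules. Its log2 ratios were 4.09, 3.82 and 4.14 with mimic and 3.55, 4.34 and 3.78 with PBS in incised skin. In intact skin they were 4.18, 4.77 and 4.85 with antimiR and 4.64, 4.90 and 5.07 with PBS. All 3 incised PBS arrays lay below all 3 intact PBS arrays, and the mimic arrays overlapped the incised PBS arrays. Orm1 fell by 0.98 ± 0.22 on the log2 scale in incised PBS skin against intact PBS skin (limma adjusted p = 0.016). It was at 0.13 ± 0.22 with mimic (adjusted p = 0.88) and at -0.27 ± 0.22 with antimiR (adjusted p = 0.52). The call ended with only the compared groups in the fit (adjusted p = 0.052), with slide as a fixed block (-0.99, adjusted p = 0.375), without incised PBS array 1 (-0.81, 0.062) and without incised PBS array 3 (-0.92, 0.054). The value was -0.53 with the processed signals and -1.78 with scaling between arrays, both called. With slide as a random block it was still called (adjusted p = 0.029). Orm2, a near-identical paralog, fell by 0.80 ± 0.22 (adjusted p = 0.034), and signal of the 2 genes at these probes may be shared.

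Cp encodes ceruloplasmin, the copper-carrying ferroxidase that loads iron onto transferrin. At the brighter probe its log2 ratios were -2.09, -2.44 and -0.76 with mimic and -2.01, -1.50 and -2.20 with PBS in incised skin. They were -2.06, -2.09 and -1.87 with antimiR and -2.29, -2.39 and -1.18 with PBS in intact skin. The 3 highest values lay in 3 different groups, and the groups overlapped in every comparison. The differences were 0.14 ± 0.42 with mimic (limma adjusted p = 0.94), -0.05 ± 0.42 with antimiR (0.96) and 0.05 ± 0.42 between incised and intact PBS skin (0.95). The dimmer probe gave -0.02 ± 0.27, 0.06 ± 0.27 and -0.37 ± 0.27 in the same order, and none was called in the fit of all 26987 probes.

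Fat cell markers were high on the arrays where Hp and Cp were high. The adipocyte marker score, the median over 14 markers of centred log2 ratios, was 0.65 on mimic array 3, 1.14 on incised PBS array 2 and 1.05 on intact PBS array 3. It ran from -0.93 to 0.01 on the other 9 arrays. All 14 markers were negative with mimic (median -0.43), and with antimiR 13 were negative and 1 positive (median -0.49). With incision 8 were negative and 6 positive (median -0.16). In each comparison 0 were called, with 2, 2 and 0 at an unadjusted p under 0.05 for mimic, antimiR and incision. The share of all genes called was 0.593%, 9.78% and 15.5% in the same order. Hp and Cp each had their 3 highest values on these 3 arrays. Saa1, Saa2, Saa3 and Lcn2 were lowest on intact PBS array 3. None of these 4 genes was lowest in its group on mimic array 3 or incised PBS array 2. Lcn2 had its highest value of all 12 arrays on mimic array 3 (2.44). In incised PBS skin Lcn2 (0.31) and Saa2 (4.49) were highest on array 2. Across the 12 arrays Hp and Cp had a Pearson r of 0.87, as a description. With the adipocyte score as a covariate, an alternative chosen after seeing the data, Hp was at 0.30 with mimic and 0.11 with antimiR (limma adjusted p = 0.50 and 0.76), and Cp at 0.44 and 0.34 (0.41 and 0.39). In that fit the antimiR differences were 2.37 for Saa1, 3.12 for Saa2 and 2.47 for Saa3. Orm1 was at -0.92 in the same fit between incised and intact PBS skin (adjusted p = 0.0087), and Lcn2 at 1.64 with mimic (adjusted p = 0.17). The part of fat cells in the values of the 8 genes was not tested.

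**Figure D3:**
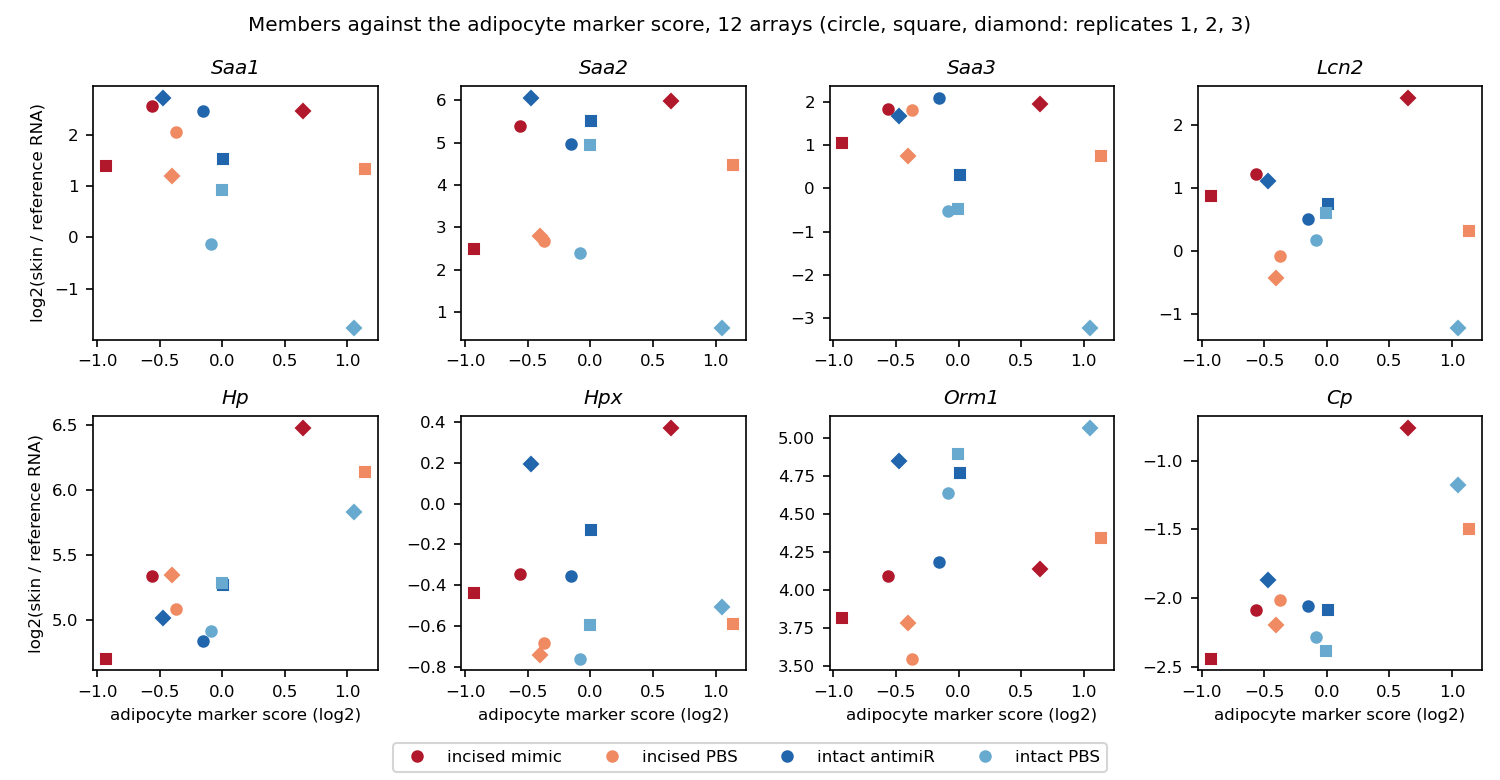
Log2 ratio of each gene (vertical axes) against the adipocyte marker score of the same array (horizontal axes, log2), with colours for the 4 groups and symbols for replicates. The 3 arrays with scores of 0.65, 1.14 and 1.05 hold the 3 highest values of Hp and of Cp. The intact PBS array among them holds the lowest values of Saa1, Saa2, Saa3 and Lcn2, while the mimic array among them holds the highest value of Lcn2.

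Markers of other sources were read beside these values. The share of all genes called was 0.593% with mimic, 9.78% with antimiR and 15.5% with incision. An unadjusted p under 0.05 was held by 2549, 4914 and 6412 of 20391 genes in the same order. The counts below were not tested against these shares. Of 12 hepatocyte markers, 3 (the apolipoprotein genes Apoa1 and Apoh, and Cps1 of the urea cycle) were above background on no array, and 2 (Apoa2 and Cyp2e1) were above it on all 12. Alb, Ttr, Serpinc1 and Ambp were above it on 9 arrays, Fabp1 on 5, and Ahsg and Hpd on 3. The hepatocyte score ran from -0.07 to 0.04 with mimic, -0.17 to 0.00 with PBS in incised skin, -0.13 to 0.11 with antimiR and -0.11 to 0.35 with PBS in intact skin. Ambp, a plasma protein precursor on that list, rose by 1.14 ± 0.17 with mimic (limma adjusted p = 0.023). With incision 3 of the 9 measured hepatocyte markers were positive and 6 negative, and 0 were called. The smallest p among them was that of Ttr, at -0.67 ± 0.25 (adjusted p = 0.094). Of 13 measured neutrophil markers, 1 rose with mimic (Mmp8, a collagenase, by 2.15 ± 0.38), 2 rose with antimiR (Mmp8 by 1.87 and S100a9 by 0.87) and 4 rose with incision, and none was called lower. The neutrophil score ran from 0.15 to 0.58 with mimic and 0.00 to 0.31 with PBS in incised skin, and from -0.33 to 0.02 with antimiR and -0.53 to -0.20 with PBS in intact skin. Of 14 macrophage markers, none was called with mimic (2 at an unadjusted p under 0.05), 4 rose with antimiR, led by Fcgr1 at 2.49 ± 0.30, and 7 rose with incision. With antimiR 6 of the 14 were positive and 8 negative, with a median of -0.17. The macrophage score ran from 0.44 to 0.58 with mimic and 0.28 to 0.42 with PBS in incised skin. In intact skin it was 0.10, -0.70 and -0.71 with antimiR and ran from -0.49 to -0.16 with PBS, so that antimiR arrays 2 and 3 lay below every intact PBS array and array 1 above. Of 12 fibroblast markers, 3 fell with mimic (Pi16 by 1.60 ± 0.22, Clec3b by 1.52 ± 0.25 and Dpt by 0.83 ± 0.15) and the list's median was -0.81. The fibroblast score ran from -0.61 to -0.36 with mimic and from 0.13 to 0.36 with PBS in incised skin, on the arrays where Lcn2 and Hpx did not overlap either. With antimiR 1 fibroblast marker rose, and 2 rose with incision. Of 12 measured skeletal muscle markers, 3 fell with mimic (Pvalb by 0.65, Myh1 by 0.56 and Atp2a1 by 0.89) and the median was -0.59, 2 fell with antimiR (Myh1 and Acta1), with a median of -0.38, and 2 rose with incision. The muscle score ran from -0.47 to -0.12 with mimic and 0.21 to 0.30 with PBS in incised skin, and from -0.29 to 0.00 with antimiR and 0.14 to 0.34 with PBS in intact skin. Of 10 endothelial markers, Eng was called higher with antimiR and with incision, and none of 13 basal and suprabasal keratinocyte markers was called in any comparison (0, 5 and 3 at an unadjusted p under 0.05 for mimic, antimiR and incision). Of 9 measured markers of activated keratinocytes, 0 were called with mimic and 0 with antimiR (0 each at an unadjusted p under 0.05), and 2 rose with incision, Sprr2d by 1.95 ± 0.49 and Krt16 by 1.03 ± 0.30. Of 6 measured erythrocyte markers none was called in any comparison, with 0, 1 and 0 at an unadjusted p under 0.05 for mimic, antimiR and incision. Of 24 interferon-induced genes, 0 were called with mimic (1 at an unadjusted p under 0.05), where 22 were positive and 2 negative, with a median of 0.38. Their score ran from 0.13 to 0.61 with mimic and from -0.23 to 0.59 with PBS in incised skin. With antimiR 23 rose (median 2.07, against 0.01 over all genes) and 20 rose with incision (median 1.33, against 0.00). The part of these cells and of the interferon-induced genes in the values of the 8 genes was not tested.

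The cytokines and factors that drive acute-phase genes were taken as a list of 24, of which 23 were measured. The share of all genes called was 9.78% with antimiR and 15.5% with incision. With mimic, 2549 of 20391 genes had an unadjusted p under 0.05. The counts below were not tested against these shares. With antimiR 3 rose: Il1b, an inducer of serum amyloid A, by 2.33 ± 0.54 (limma adjusted p = 0.023), Tnf by 0.86 ± 0.20 (adjusted p = 0.024), and the kinase gene Jak2 by 0.36 ± 0.08 (0.022). The list's median was 0.13, against 0.01 over all genes. With incision 3 rose and 2 fell. Il1b rose by 2.49 ± 0.54 (adjusted p = 0.013), Il6 by 1.03 ± 0.28 (0.033) and Stat3 by 0.34 ± 0.10 (0.049). Il6st, the shared receptor subunit of the interleukin 6 family, fell by 0.39 ± 0.09 (0.017), and Nfkbiz, a nuclear partner of NF-kB, fell by 0.62 ± 0.19 (0.0495). Il6 was at 0.95 ± 0.28 with antimiR (0.059). None of the list was called with mimic (2 at an unadjusted p under 0.05), where Il1b was at 0.53, Tnf at 0.66 and Il6 at 0.00. Cebpd ranged from -0.63 to 0.29 and Socs3 from -0.01 to 0.24 over the 3 comparisons, none called.

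Of 26 other acute-phase proteins, 18 were measured. The share of all genes called was 0.593% with mimic, 9.78% with antimiR and 15.5% with incision. None was called with mimic or antimiR (3 and 1 at an unadjusted p under 0.05), with medians of 0.04 and 0.12. With incision 2 rose, the pentraxin Ptx3 by 1.103 ± 0.20 (limma adjusted p = 0.0056) and complement factor Cfb by 0.61 ± 0.16 (0.025), and Orm2 fell as given above. Their median was -0.02, against 0.00 over all genes.

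Genes of iron and haem handling were a list of 28, of which 26 were measured. The share of all genes called was 9.78% with antimiR and 15.5% with incision. The counts of this list, 1 and 4 of 26, did not exceed these shares of genes called in either direction. All were rises, and 1073 and 2016 of 20391 genes were called higher with antimiR and with incision. The counts were not tested against either share. None was called with mimic (4 at an unadjusted p under 0.05), and Lrp1, the receptor that takes up haem bound to hemopexin, was at 0.45 ± 0.11 (limma adjusted p = 0.092). With antimiR 1 rose, Lrp1 by 0.62 ± 0.11 (0.0051). With incision 4 rose: the haem oxygenase gene Hmox1 by 1.15 ± 0.20 (0.0050), the phagosomal iron transporter gene Slc11a1 by 0.92 ± 0.21 (0.016), the ferroportin gene Slc40a1 by 1.00 ± 0.23 (0.017) and the ferritin light chain gene Ftl1 by 0.58 ± 0.16 (0.031). Tfrc, the transferrin receptor, was between -0.17 and 0.19 in the 3 comparisons and was not called. The hepcidin gene Hamp was above background on 0 arrays and the lactoferrin gene Ltf on 1, so neither was tested. Of 9 measured receptors for serum amyloid A and lipocalin 2, P2rx7 rose with antimiR by 0.57 ± 0.13 (0.020) and Tlr2 rose with incision by 0.82 ± 0.25 (0.046). Fpr2, a receptor for serum amyloid A, was at 1.102 ± 0.44 with mimic, 1.20 ± 0.44 with antimiR and 1.08 ± 0.44 with incision, with adjusted p of 0.34, 0.12 and 0.12.

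Genes whose log2 ratios were most like each member's over the 12 arrays were found among 15288 genes with a value on all of them, as a description. The closest gene to Saa1 and to Saa3 was Rcan3, with Pearson r of 0.97 and 0.96. For Orm1 it was Orm2 (0.97), for Cp the serine protease inhibitor gene Serpina3k (0.97) and for Hp the metalloreductase gene Steap4 (0.93). Steap4 was picked for its likeness to Hp and had its highest values on the same 3 arrays, at 4.60 with mimic, 4.24 with PBS in incised skin and 4.05 with PBS in intact skin. Because of that choice, these values are no separate evidence on fat cells. For Saa2 the closest was Ccar2 (0.96), for Lcn2 Commd10 (0.92) and for Hpx Trdmt1 (0.95).

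**Figure D4:**
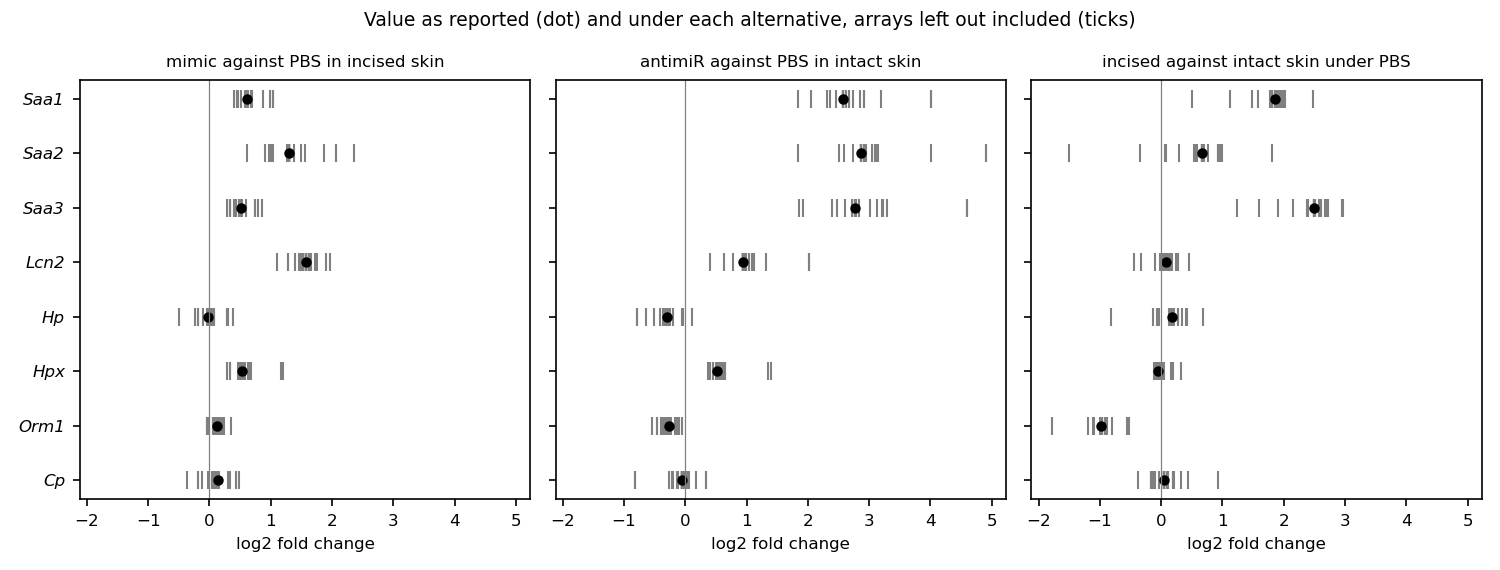
Log2 fold change of each gene in 3 comparisons as reported (dots) and under each alternative, including each array left out (ticks). The Saa values with antimiR ran from 1.84 to 4.90. Saa1 and Saa3 were chosen by this difference on the same arrays, so their kept sign is a description and no support. Hp and Cp values lay on both sides of 0 in each comparison. Orm1 between incised and intact PBS skin ran from -1.78 to -0.53.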

How the data were processed

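Gene expression in 12 mouse skin samples, 3 in each of 4 groups, was measured on 2-colour Agilent arrays, with skin RNA in Cy5 and a universal mouse reference RNA in Cy3 on every array and no dye swap. Per the file headers, the scanner files hold mean spot and local background intensity from Agilent Feature Extraction 11.5.1.1, processed intensity, and a log10 ratio of Cy5 over Cy3. A table of log2 values per gene symbol, deposited by the authors, held skin over reference by comparison with the scanner files, although its title names the dyes in the other order.

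Mean signals were background-corrected (normexp, offset 50) and loess-normalized within arrays with limma 3.58.1 in R 4.3.3, and replicate spots of a probe were averaged. Probes with a gene name and with Cy5 above background on at least 3 of 12 arrays and 2 values in each group were kept (26987), and the brightest kept probe stood for a gene. All 12 arrays were fitted together with lmFit and eBayes. The error given with each fold change is the fit's standard error, p-values are 2-sided, and adjustment is Benjamini-Hochberg over 20391 genes. The fit was tested on simulated data. The number of arrays limits the precision.

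The 8 genes and all gene lists were chosen with earlier results of these data known. Named genes were the 8 members, at most 4 called genes of smallest p per list, and fixed inducers, iron genes and a receptor. A list score is the median over its genes of log2 ratios centred over the arrays. Replicate numbers are shared between groups but correlations of same-numbered deviations ran from -0.44 to 0.29, so they were not treated as pairs. Alternatives covered the background correction, scaling, Cy5 alone, the deposited table, the filters, the probe choice, the arrays in the fit, array weights, slide, replicate and adipocyte score, and each array left out. Promoters and miRNAs came from RefSeq (GRCm38.p6) and were searched in Python with Biopython.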

Additional observations from a re-analysis of the deposited data

How the results depend on the processing

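Values of Saa1, Saa2, Saa3, Lcn2 and Hpx with mimic, and of Lcn2 and Hpx with antimiR, stayed positive under all alternatives run. So did Saa1, Saa2 and Saa3 with antimiR, but Saa1 and Saa3 were chosen by that difference on the same arrays. Their kept sign, and that of the paralog Saa2, is therefore a description and no support. Of the tested genes, the number called was 0 of 8 with mimic, and 1 with array weights (Lcn2). It was 0 of 5 with antimiR, and 1 with slide as a fixed block (Lcn2), where intact PBS array 3 was the only control, and 1 array left out gave 0 to 1. With incision it was 1 of 5, and 0 with slide as a fixed block or with only the compared groups in the fit, and 1 array left out gave 0 to 1. In the difference between effects it was 0 of 5 under every alternative. No other alternative changed these numbers. With slide as a fixed block, all incision values and counts in this section link incised and intact PBS skin through the mimic arrays only. Saa2 with incision, a value without a test, was 0.67, and -1.51 with slide as a fixed block, and 1 array left out gave -0.35 to 1.81. The other log2 values whose sign turned were not called, in either sign. With the program's processed signals they were Hp 0.032 and Orm1 -0.037 with mimic, Hpx 0.19 with incision and Hpx -0.18 in the difference between effects. With scaling between arrays they were Hp 0.073 with mimic, Cp 0.0051 with antimiR, Hp -0.81 and Hpx 0.050 with incision and Hpx -0.093 in the difference between effects. With Cy5 alone they were Hp 0.28 with mimic, Cp 0.012 with antimiR and Hp -0.062 and Cp -0.031 with incision. In the deposited table they were Hp 0.058, Orm1 -0.011 and Cp -0.13 with mimic, Cp 0.020 with antimiR, Hpx 0.15 and Cp -0.10 with incision and Hpx -0.20 and Cp -0.15 in the difference between effects. At the second probe they were Cp -0.017 with mimic, Cp 0.055 with antimiR, Cp -0.37 with incision and Cp -0.072 in the difference between effects. With slide as a fixed block they were Cp -0.18 with mimic, Lcn2 -0.021 and Hpx 0.32 with incision and Lcn2 -0.73 and Hpx -0.080 in the difference between effects. With the adipocyte score as a covariate they were Hp 0.30 with mimic, Hp 0.11 and Cp 0.34 with antimiR and Hpx -0.017 in the difference between effects. With the mean over probes they were Cp 0.00086 with antimiR and Cp -0.16 with incision. With array weights they were Cp 0.17 with antimiR, Lcn2 -0.32 with incision and Hp -0.00018, Hpx -0.11 and Cp -0.10 in the difference between effects. With no background correction they were Hpx -0.053 in the difference between effects. With slide as a random block they were Hpx -0.0068 in the difference between effects. With 1 array left out the log2 values whose sign turned ran from -0.50 to 0.39 for Hp, -0.36 to 0.48 for Cp and -0.043 to 0.35 for Orm1 with mimic, and from -0.27 to 0.33 for Cp with antimiR, and from -0.45 to 0.46 for Lcn2, -0.13 to 0.43 for Hp, -0.17 to 0.43 for Cp and -0.12 to 0.0062 for Hpx with incision, and from -0.20 to 0.68 for Hp, -0.24 to 0.16 for Hpx and -0.31 to 0.53 for Cp in the difference between effects. The cause was not tested. Of all genes, 121 were called with mimic, and 0 to 816 under alternatives, with 0 with slide as a fixed block. With antimiR 1995 were called, and 542 to 2220, the lowest with only the compared groups. With incision 3152 were called, and 11 to 3506, with 11 with slide as a fixed block. A replicate block gave 77, 1635 and 2808 genes and changed no member's call, in samples not known to be paired. With Cy5 required above background on all 12 arrays, Hpx could not be tested. The dim Hpx probe is limited by signal over background.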
